A study of Rattus norvegicus with 2 samples.

Results

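The Kruppel-like factors examined here were the 10 genes Klf2, Klf3, Klf4, Klf5, Klf6, Klf7, Klf9, Klf10, Klf13 and Klf15, chosen by the gene name printed for each non-control probe of the array. They were read by 16 probes, each 60 bases long, and all 16 probes were well above background on both arrays. They are 10 of 13058 genes measured on both arrays. The cells were IEC6, a non-transformed line from rat small intestine that is used as a model of crypt epithelium. The Na2S3 group was exposed for 60 min to sodium trisulfide, an inorganic polysulfide, and the water group received H2O for 60 min. The dose stands as 100 µM in the sample label and the design text but as 100 mM in the protocol field, and the files do not settle which is right. Cultures were grown in DMEM with 10% FCS, and the treatment medium held 0.1% FCS. Each group is 1 RNA sample on 1 single-colour array, both on the same slide, so no value has a replicate check, no p-value can be given, and "higher" and "lower" describe this pair of arrays.

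Kruppel-like factors are transcription factors that bind GC-rich and CACCC-containing DNA through zinc fingers at the end of the protein. The members differ outside the zinc fingers. An activating subgroup includes Klf2, Klf4, Klf5, Klf6 and Klf7, a subgroup that recruits the Sin3 corepressor includes Klf9, Klf10 and Klf13, and Klf3 represses through CtBP. Several of the genes are switched on quickly by growth signals, stress or steroid hormones. In the intestine, Klf4 is known from differentiated cells, where it restrains division, and Klf5 from dividing crypt cells, where it promotes it.

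By brightest probe, the family split by sign in these arrays, and only Klf5 was lower at every probe. Of the 10 genes, 8 had a higher scaled signal with Na2S3 and 2 a lower one, with log2 ratios (Na2S3 over water) that ran from -0.50 for Klf5 to 1.24 for Klf4 and a median of 0.53. Across the 13058 measured genes the median was -0.04, and 43.4% of them had a positive ratio. Klf4 and Klf2 were at least 2-fold higher, 2 of 10 members, where 0.942% of all measured genes were. No member was at least 2-fold lower (0 of 10, against 0.620% of all genes). At a limit of 1.5-fold, added after the ratios were seen, 5 of 10 members were higher (2.96% of all genes) and 0 of 10 were lower (3.42% of all genes). Those 5 were Klf4, Klf2, Klf9, Klf15 and Klf10.

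Signals are given in the intensity units of the scanner software. The 75th percentile over non-control probes was 478 units on the Na2S3 array and 413 on the water array, and every ratio and fold below is taken after dividing each array by its own percentile, a correction of 1.15-fold. Signals of different probes are not set against each other, since probes differ in how strongly they bind. The error given with a log2 ratio comes from probes spotted more than once, as the SD between their spots at a like signal (divided by the square root of the number of spots), and it covers spots within an array, not differences between the hybridisations or the cultures. It ran from 0.05 to 0.34 for the 10 members. The scanner software's own error of the log2 ratio was larger for most, 0.20 to 0.26, and under it the ratios of Klf4, Klf2, Klf9, Klf15, Klf10 and Klf5 exceeded 2 errors while those of Klf7, Klf13, Klf6 and Klf3 did not.

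**Figure D1:**
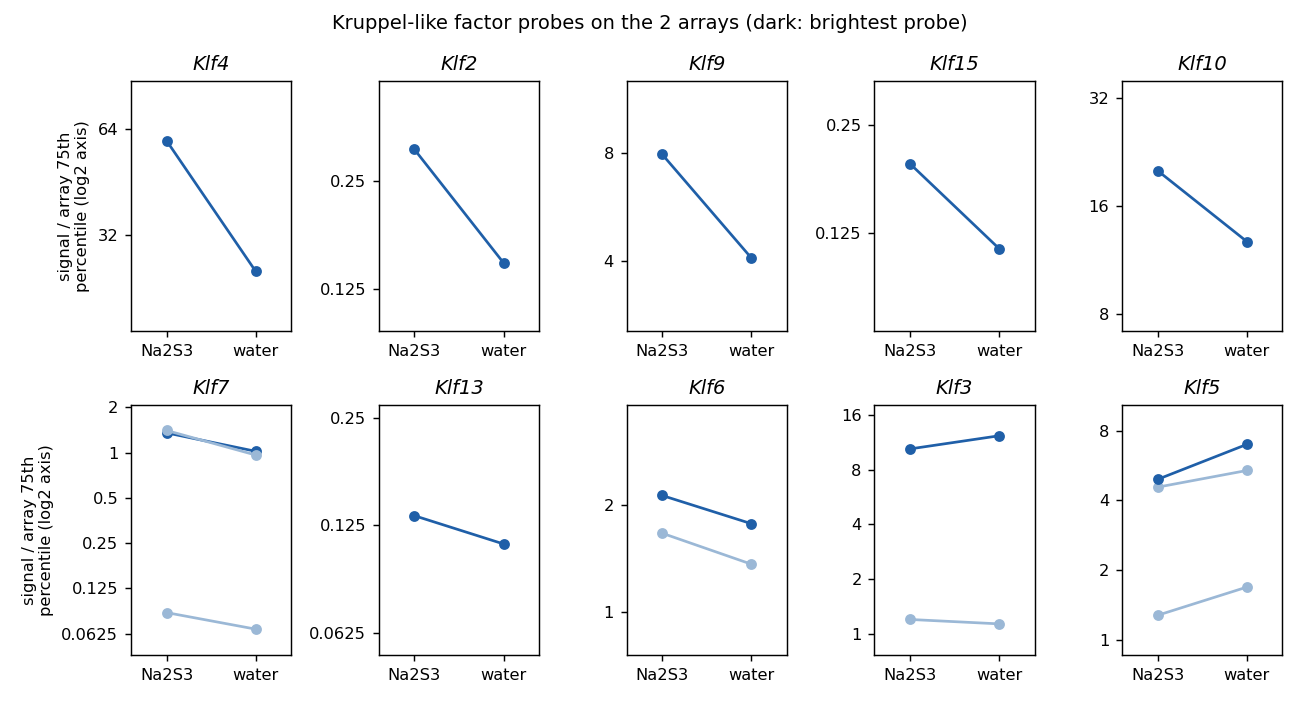
Signal of each Kruppel-like factor probe on the Na2S3 and water arrays, as a multiple of that array's 75th percentile, on log2 axes that differ between panels. Each line joins the values of 1 probe, with the brightest probe of a gene in the darker colour. Lines slope down towards water for 8 genes, and up for the brightest probe of Klf3 and all 3 probes of Klf5.

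In the activating subgroup 4 of 5 members had positive ratios, with a median of 0.41, and 2 were at least 2-fold higher. Klf4 stood highest. This zinc-finger gene, also known as a reprogramming factor, gave 28708 and 27987 units at its 2 spots on the Na2S3 array, against 10436 and 10323 units on the water array. Both spots were higher with Na2S3, with log2 ratios of 1.25 and 1.23. The gene value was 2.36-fold (log2 ratio 1.24 ± 0.05). Only 0.574% of all measured genes had a higher ratio, and of 559 other genes within 0.5 log2 units of its mean signal, 2 had one as high. The Klf4 probe lay at chr5:73446994-73447053 on the minus strand in the rn4 coordinates of the files.

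Klf2, known for holding endothelial cells and T cells in a quiet state, gave 146 units with Na2S3 and 61.1 units with water at its only spot. It was 2.07-fold higher (1.05 ± 0.19), close to the 2-fold limit. These signals are not far above the lowest that still counted as well above background, 20.5 units on the Na2S3 array and 18.3 on the water array. Of 1143 other genes of similar signal, 26 (2.27%) had a ratio at least as high. With normexp background correction, which included an added offset of 50 units, the Klf2 log2 ratio was 0.56, below 2-fold.

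Since family members share similar sequence, the Klf2 probe, which carries the second 2-fold call, is shown beside probes that match it. It lay at chr16:17942544-17942603, minus strand. Among 450 pairs of probes of different family genes, the best ungapped match was between the Klf2 probe and that of Klf1, the erythroid member, with 30 of 43 overlapping bases identical (69.8%). Between members the best match was Klf2 with a Klf5 probe, 16 of 26 overlapping bases (61.5%). The Klf5 probe spans chr15:83107766-83116603 on the plus strand, 8838 bases for a probe of 60, so its bases come from genomic blocks that are joined in the transcript. Capitals mark bases that the Klf2 probe shares with Klf1, and in Klf1 and Klf5 those shared with Klf2.
Klf2: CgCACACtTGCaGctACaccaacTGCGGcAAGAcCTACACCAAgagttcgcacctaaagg
Klf1: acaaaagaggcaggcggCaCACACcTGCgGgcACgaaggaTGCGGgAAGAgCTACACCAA
Klf5: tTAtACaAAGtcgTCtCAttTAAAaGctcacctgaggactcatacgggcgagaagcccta
The Klf1 probe was not flagged well above background on either array (21.0 units with Na2S3 and 20.4 with water). The flag is set spot by spot, so a signal above the lowest flagged one can still lack it. The Klf5 probe shown was lower with Na2S3 while Klf2 was higher. Probes were compared only with other probes, not with the whole transcripts of other members such as Klf4. Cross-hybridisation between family members was therefore not tested.

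Klf5 was the lowest member. Its brightest probe (chr15:83116787-83116846) gave 2356 units with Na2S3 and 2887 with water, 1.42-fold lower (-0.50 ± 0.10). The probe at chr15:83118108-83118167 gave 2179.9 and 2227 units (log2 ratio -0.24), and the junction probe 609.8 and 699 units (-0.40), again with Na2S3 first. All 3 probes had a negative scaled ratio, so the direction did not depend on which probe was read. Of 1567 other genes of similar signal, 25 (1.60%) had a ratio at least as low. Klf4 and Klf5 thus stood at opposite ends of the family, 1.24 against -0.50.

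Klf6 and Klf7 lay between. Klf6 was read on chr17 at 75579782-75579841 (brightest) and 75577828-75577887, and Klf7 on chr9 at 62737502-62737561 (brightest), 62690724-62690783 and 62692595-62692654. Klf6, a widely expressed gene that responds to injury, gave 1012 units with Na2S3 and 731 with water at one probe, and 794 and 563 units at the other. The log2 ratios of 0.26 and 0.29 were close to each other, and 11.9% of all genes stood higher than the value of the brightest probe. Klf7, named for its broad expression and known for its part in axon growth, had log2 ratios of 0.41, 0.54 and 0.37 at its 3 probes. Its brightest probe gave 646 units with Na2S3 against 421 with water. The next gave 669.7 units against 398, and the dimmest 41.2 against 27.7, again Na2S3 against water. All 3 Klf7 probes were higher with Na2S3, none by 1.5-fold.

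**Figure D2:**
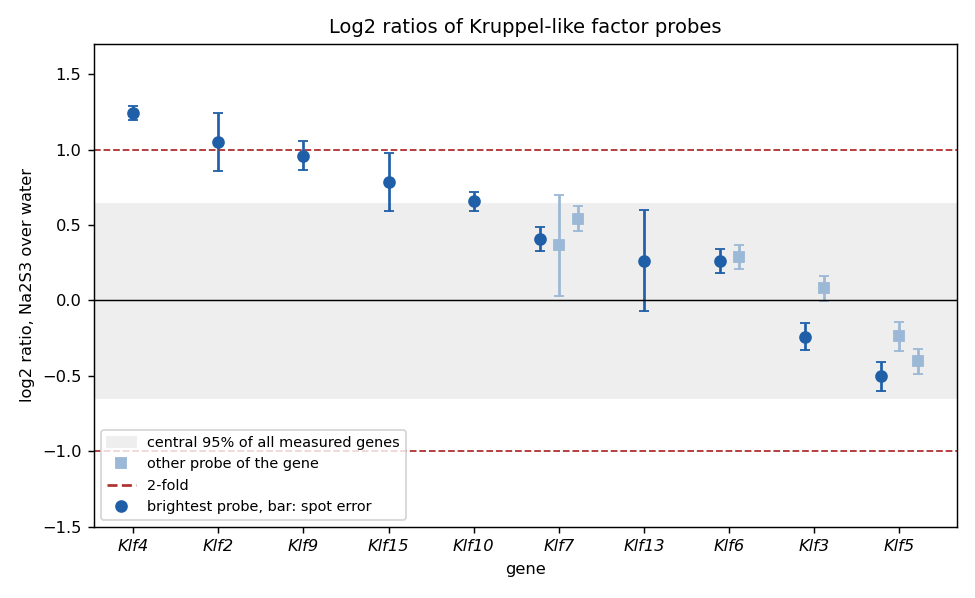
Log2 ratio of Na2S3 over water for each probe of the 10 genes, ordered by the brightest probe. Bars are the spot error (1 SD from repeat spots), the grey band holds the central 95% of all measured genes (-0.65 to 0.64) and dashed lines mark 2-fold. Klf4, Klf2, Klf9, Klf15 and Klf10 lie above the band, and no probe lies below it.

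In the subgroup that binds Sin3, all 3 members had positive ratios, with a median of 0.66, and 2 were past 1.5-fold. Klf9, which glucocorticoids and thyroid hormone induce, gave 3788 units with Na2S3 and 1685 with water at 1 spot (chr1:226445625-226445684). Its ratio of 1.95-fold (0.96 ± 0.10) lay just below the 2-fold limit. Of 1578 other genes of similar signal, 8 (0.507%) had one as high, and 1.05% of all genes stood higher. Klf9 and Klf2 thus sat just on either side of the limit, and their difference of 0.09 was smaller than its spot error of 0.22.

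Klf10, the TGF-beta inducible early gene, gave 10289 and 8943 units at its 2 spots with Na2S3, against 5579 and 4974 units with water (chr7:73821297-73821356). Its ratio was 1.58-fold (0.66 ± 0.06), and 9 of 1068 other genes of similar signal had one as high. Klf13, a regulator of the chemokine RANTES in lymphocytes, gave 63.5 units with Na2S3 and 45.9 with water (chr1:118398739-118398798). Its log2 ratio of 0.26 was smaller than its spot error of 0.34, so a difference was not detectable at this signal.

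Klf3 and Klf15 fall outside these subgroups. Klf3, a repressor that recruits CtBP, gave 4985 units with Na2S3 and 5099.7 with water at its brightest probe (chr14:46203731-46203790, -0.24 ± 0.09), and 572 and 468 units at the other (chr14:46206993-46207052, 0.08 ± 0.08). The Klf3 probes differed in sign, so its direction rests on the choice of probe. Klf15, a metabolic regulator known for amino acid breakdown in muscle and liver, gave 93.2 units with Na2S3 and 46.7 with water (chr4:124726755-124726814). Its 1.73-fold ratio (0.79 ± 0.19) came from 1 spot, and 43 of 1168 other genes of similar signal (3.68%) stood at least as high. With normexp the Klf15 ratio was 0.31, less than 1.5-fold.

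Ordered by ratio, the family ran Klf4, Klf2, Klf9, Klf15, Klf10, Klf7, Klf13, Klf6, Klf3 and Klf5. Of the 9 steps between neighbours, only those from Klf10 to Klf7 (0.25 log2 units) and from Klf6 to Klf3 (0.50) were larger than 2 spot errors of the difference. Under the software's error 0 of the 9 steps were. Among the 5 highest genes, 4 of 10 pairs differed by more than 2 spot errors (Klf4 from Klf9, Klf15 and Klf10, and Klf9 from Klf10), and by the software's error 1 pair did, Klf4 and Klf10. Over all 45 pairs of members the counts were 31 by spot error and 23 by the software's error. Of the 4 genes with several probes, 3 had the same sign at every probe, Klf3 being the exception. Brightest probes were spotted 2 times for Klf4 and Klf10 and once for the other 8 genes.

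**Figure D3:**
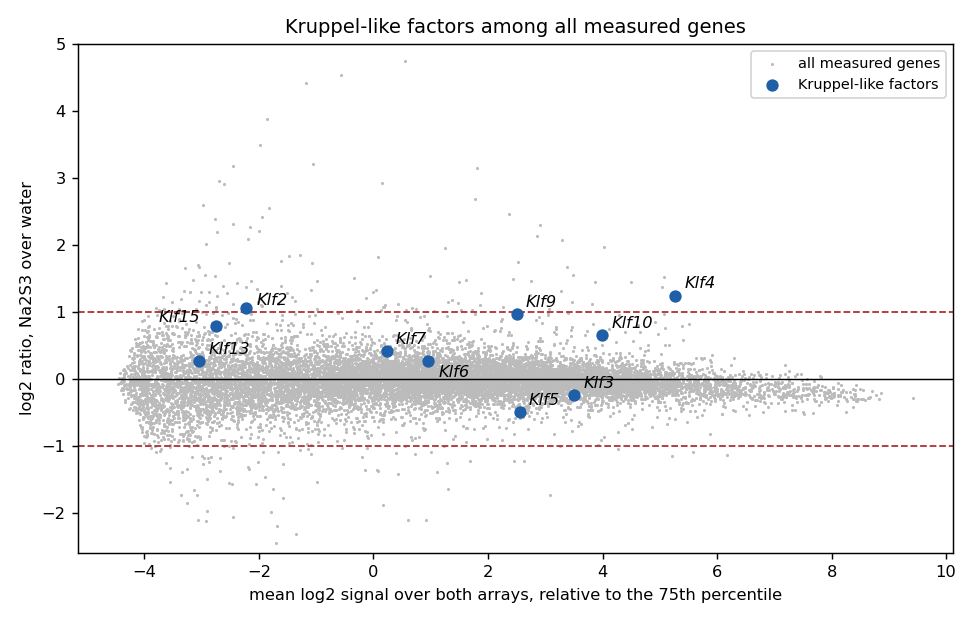
Log2 ratio of Na2S3 over water against the mean log2 signal of both arrays for the 13058 measured genes (grey) and the 10 Kruppel-like factors (blue). Klf4, Klf9 and Klf10 lie at high signal, where grey points scatter little, while Klf2, Klf15 and Klf13 lie at low signal, where the scatter is wide.

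The scatter of other genes differed with signal. Around Klf4, Klf9 and Klf10 the SD of the log2 ratios of other genes of similar signal was 0.22, 0.25 and 0.21. Around Klf2, Klf15 and Klf13 it was 0.49, 0.50 and 0.50. The same log2 difference therefore stands out less for Klf2, Klf15 and Klf13.

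**Figure D4:**
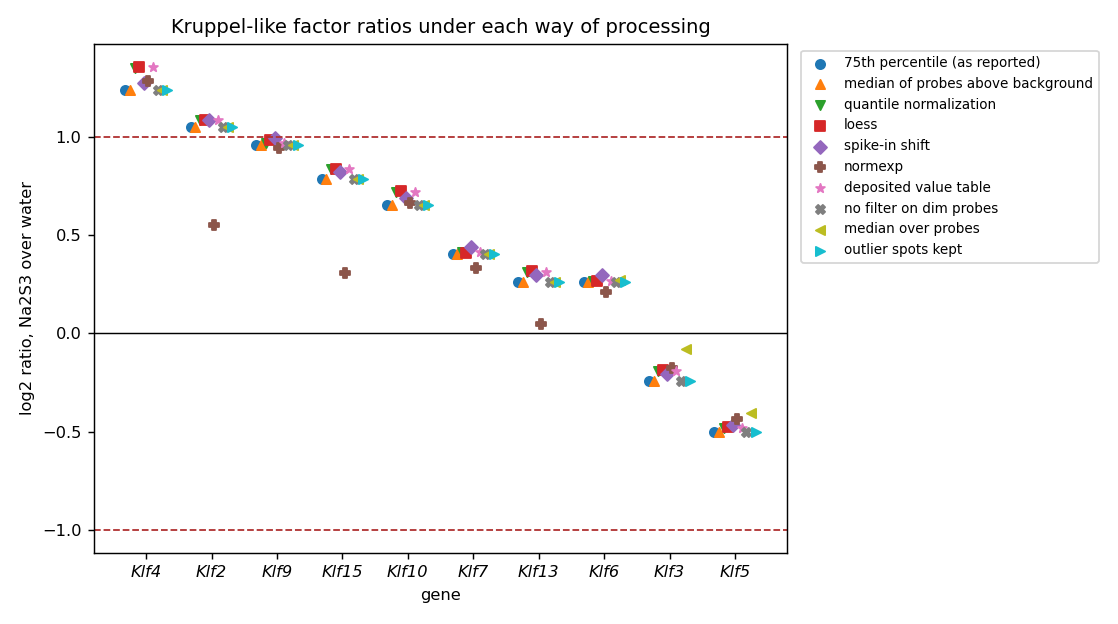
Log2 ratio of Na2S3 over water for each member as reported and under 9 other ways of processing, with dashed lines at 2-fold. The largest shifts are under normexp, which puts Klf2 at 0.56, Klf15 at 0.31 and Klf13 at 0.05. The median over probes puts Klf3 at -0.08 and Klf5 at -0.40, and quantile normalization, loess and the deposited table put Klf4 at 1.36. Other points of a gene lie close together.

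The genes closest to the extremes were found by the distance over 2 values, the log2 ratio and the mean log2 scaled signal, from the 2 arrays. Nearest to Klf4 were Dusp6, which encodes an ERK phosphatase, at 2.59-fold, Ccn2, a secreted matrix protein gene, at 1.96-fold, and Areg, an EGF receptor ligand gene, at 2.85-fold. Their distances from Klf4 were 0.27, 0.33 and 0.34. Nearest to Klf5 were Fam120b, Snn and Ndufv3, with log2 ratios of -0.52, -0.44 and -0.42 and distances of 0.02, 0.06 and 0.09. With 1 sample per group, nearness here means a like pair of values and no more.

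Of 8 further Klf genes, 6 had a probe under their name and 3 were measured: Klf11 had a log2 ratio of 0.30, Klf14 one of 0.24 and Klf16 one of 0.22. None of the 3 was past 1.5-fold, and Klf1, Klf8 and Klf12 were not flagged well above background on either array. The related Sp factors, which share the zinc fingers, had 0 of 5 measured genes past 1.5-fold, with a median of -0.06, Sp3 at -0.38 and Sp1 at 0.31.

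Lists of partners and regulators were read against all measured genes, of which 93.6% lay within 1.5-fold and 43.4% had a positive ratio, so a count of 0 past 1.5-fold in a list of this size is near the background. Cofactors had 0 of 11 measured genes past 1.5-fold and a median of -0.06, with Hdac1, a deacetylase gene of Sin3 complexes, at -0.21, and Ep300, an acetyltransferase gene, at 0.18. Probes disagreed for some of them, with a further Ep300 probe at 0.63 and probes of Ncor1, a corepressor gene, from -0.20 to 0.72. Among regulators upstream of Klf genes, 0 of 10 passed 1.5-fold and 8 were positive, with a median of 0.12. Smad3, a TGF-beta signal carrier, had 0.58 and Srf, the serum response factor, 0.57. Both were 1.49-fold higher, just below the limit, so the count of 0 hangs on where the limit was set. Foxo1 had -0.43. Genes that act on Klf protein turnover had 10 of 11 positive ratios but 0 past 1.5-fold, with a median of 0.14. Usp10, a deubiquitinase gene, had 0.48, and the ubiquitin ligase genes Smurf2 and Fbxw7 had 0.34 and -0.09. A dimmer Fbxw7 probe had -0.41. For the ligase gene Wwp1, a dimmer probe had 0.73, against 0.03 at its brightest.

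Known targets of the family did not share a direction. Of 17 measured, 8 had a positive ratio, and the median was -0.05. Past 2-fold there was 1 higher gene and 0 lower (0.942% and 0.620% of all genes). At 1.5-fold, the limit used for the other lists, 2 were higher and 1 lower (2.96% and 3.42% of all genes). Smad7, an inhibitor of TGF-beta signalling, gave 3336 units with Na2S3 and 1371 with water, 2.11-fold. Cdkn1a, the cell cycle inhibitor gene that Klf4 activates, gave 5486 units with Na2S3 and 2461 with water, 1.93-fold at its brightest probe (log2 ratio 0.95) and past 2-fold at the other. Txnip, an inhibitor of thioredoxin, gave 675 units with Na2S3 and 993 with water, with a log2 ratio of -0.76. Ccnd1, the cyclin D1 gene, had -0.20. The epithelial target Alpi, an intestinal alkaline phosphatase gene, fell short of the background limit on both arrays.

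**Figure D5:**
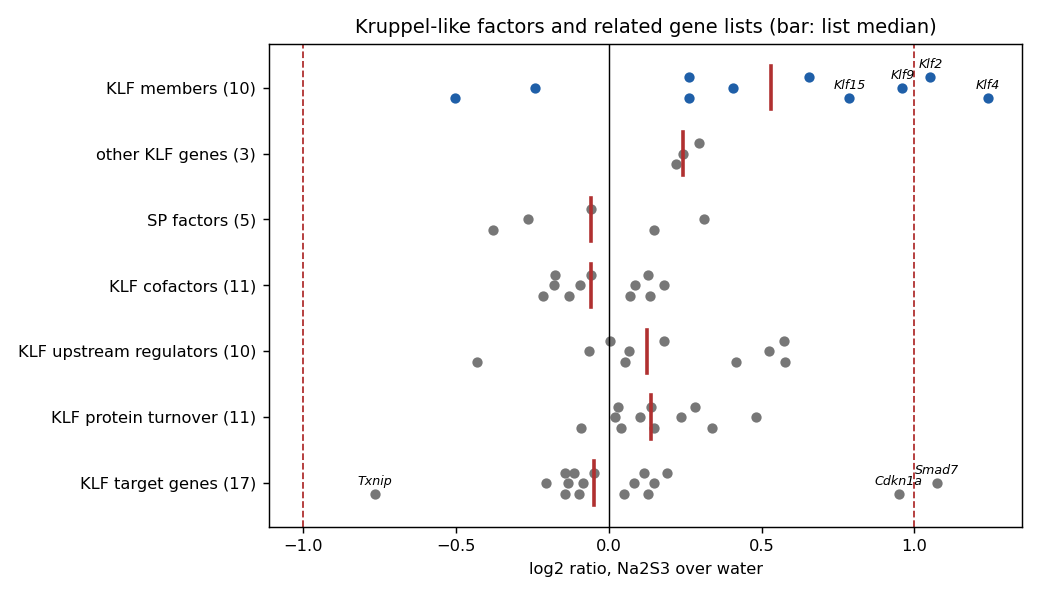
Log2 ratio of Na2S3 over water for the 10 Kruppel-like factors (blue) and for the measured genes of 6 related lists (grey), with the number of genes in brackets and a red bar at each median. The family median of 0.53 lies to the right of the 6 list medians, which run from -0.06 to 0.24.

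Promoter sequence of 7 of the 10 members was in the RefSeq table (build GRCr8). The 250 bases before the start were searched on both strands for 10 patterns, some of which share letters. Start sites matched the edge of the gene's RefSeq span for Klf5, Klf6 and Klf9, while those of Klf3, Klf4, Klf7 and Klf15 lay inside the span. The windows of Klf9, the highest of the 3 by ratio, and of Klf5, the lowest, are shown, Klf9 at chr1:230126396-230126645 and Klf5 at chr15:82471831-82472080, both on the plus strand. Capitals mark every pattern found.
Klf9: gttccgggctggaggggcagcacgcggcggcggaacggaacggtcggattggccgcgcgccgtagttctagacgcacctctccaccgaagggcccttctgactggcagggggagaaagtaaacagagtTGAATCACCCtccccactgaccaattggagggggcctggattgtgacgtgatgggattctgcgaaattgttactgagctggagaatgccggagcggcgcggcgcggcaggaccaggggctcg
Klf5: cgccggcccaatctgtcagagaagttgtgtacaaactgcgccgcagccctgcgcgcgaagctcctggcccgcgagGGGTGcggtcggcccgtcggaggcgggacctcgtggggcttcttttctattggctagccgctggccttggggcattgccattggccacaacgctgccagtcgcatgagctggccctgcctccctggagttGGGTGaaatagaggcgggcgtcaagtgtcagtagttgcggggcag
In Klf9, TGAATCA (pattern TGANTCA, where N is any base) began 122 bases before the start and ran into a CACCC that began 117 bases before it. In Klf5, CACCC occurred 2 times on the opposite strand, as GGGTG, 175 and 45 bases before the start.

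CACCC, a core of the family's own binding site, was in 5 of the 7 member windows (Klf3, Klf5, Klf7, Klf9 and Klf15) and in 49.2% of all 33469 windows. GGGCGG was in Klf6 and Klf7 (30.5% of all windows). Both CACGTG (5.59%) and TGACNNNGC (10.1%) were in Klf6 and Klf15, TGANTCA was in Klf9 alone (6.34%), TATAAA in Klf4 (12.9%) and the CArG box in Klf6 (1.5%). In 0 of the 7 windows were TGACGTCA (1.59% of all windows), TGACGNAA (1.75%) and GGAAGT (19.2%). The higher member Klf9 and the lower member Klf5 both held CACCC. A match of letters is no evidence that a factor binds there.

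The labelled cell type was checked by markers. Of 10 epithelial markers, 6 were measured, among them Krt8 (18283 units with Na2S3 and 15892 with water) and Cdh1 (16264 and 14703 units), and 0 passed 1.5-fold. The intestinal gene Cdx1 was measured too (2051 units with Na2S3 and 2086 with water), while the intestinal genes Vil1 and Cdx2, and Epcam and Cldn7, were not well above background. Fibroblast markers were also measured, 5 of 7, with Col3a1 at 108685 units with Na2S3 and 91981 with water, Col1a1 at 70180 and 71687 units, and Pdgfra and Lum not well above background. Of the endothelial markers 3 of 6 were measured, Vwf and Tek among them, with Pecam1, Kdr and Emcn not well above background. Among immune markers Ptprc and Cd68 were measured, at low signal, with Cd3e and Lyz2 not well above background. Ptprc gave 27.1 units with Na2S3 and 29.2 with water, and Cd68 gave 84.8 and 88.5 units. No measured marker passed 1.5-fold in either direction, which is near the background given that 93.6% of all genes did not. The medians of the log2 ratios were -0.03 for epithelial, -0.24 for fibroblast, -0.11 for endothelial and -0.29 for immune markers, and their part in the Klf ratios was not tested. About the same share of probes was above background on both arrays (49.0% with Na2S3 and 49.5% with water).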

How the data were processed

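Total RNA of IEC6 cells was labelled with Cy3 and read on single-colour Agilent arrays, 1 per group. Spot intensity values come from Feature Extraction 10.7.1.1, per the file headers (the submitters' processing notes name 9.5.1.1), run with spatial and multiplicative detrending on. The authors' deposited value table holds intensity values too, with equal medians of 19.3; its scale is linear, and no source used here names the tool that made it.

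Flagged outlier spots were left out (390 with Na2S3, 448 with water) and 0 spots were saturated. Log2 signals were averaged per probe, and each array's 75th percentile was subtracted (478 and 413 units). A probe counted when over 50% of its spots were flagged well above background on both arrays, and a gene's value is its brightest such probe. Names came from RefSeq accessions (21109 probes) or the file (14736); 9753 probes without a symbol were left out of gene counts. Analyses used Python 3.11.15 and limma 3.58.1. The 75th percentile scaling and the gene values were tested on simulated data with the same spot noise at every signal, unlike these arrays. The alternatives were not tested in this way. The arrays' number limits the precision.

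Members, lists and rules were chosen with earlier results of these data known. The text names all members with every probe, per related list the genes past 2-fold or otherwise the 2 largest ratios, the 3 genes nearest to the highest and the lowest member, and the 2 brightest and the dim markers of each cell type, of which 1 is not reported here. Cdx1, Foxo1, Fbxw7, Cdkn1a, Txnip, Ccnd1, Alpi, Ncor1 and Wwp1 fall outside that rule and were chosen after their values were seen. Exon and UTR positions of the probes were not worked out. The alternatives tried are given at the end.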

Additional observations from a re-analysis of the deposited data

How the results depend on the processing

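The sign of all 10 members held under all 9 alternatives, but not all of these could change it. Scaling to the median of probes above background, keeping outlier spots and dropping the dim-probe filter left member ratios almost unchanged. Taking the median over probes could not alter the 6 members with 1 probe. No alternative read the second Klf3 probe (0.08) alone. Klf4 stayed at least 2-fold higher under each alternative, with log2 ratios of 1.24 to 1.36. Klf9 ran from 0.95 to 0.997 and passed 2-fold under 0 of them. With normexp background correction 1 member passed 2-fold and 3 passed 1.5-fold upwards and the family median was 0.32, while 61 genes in all were at least 2-fold higher and 31 lower. Without a filter on dim probes these counts were 1062 and 1545, and the share of higher genes was 40.7%, against 60.3% with the filter. Under quantile normalization that share was 67.8%. Taking the median over probes put 2 genes of the 6 related lists past 2-fold, Smad7 and Cdkn1a, since the other Cdkn1a probe was itself past 2-fold. The normexp setting also added an offset of 50 units to each spot, which draws ratios of dim probes towards 0. Its share in the normexp values was not tested, nor was the cause under quantile normalization. No scaling moved the median of all genes by 0.1 log2 units. Dim signals limit Klf2, Klf13 and Klf15. No paired analysis was possible because each group has 1 array, and for the same reason no replicate could be left out.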

Other observations

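A pseudogene of Klf5, Klf5-ps2, was 2.22-fold lower on the Na2S3 array at its only probe. It gave 40.0 units with Na2S3 and 76.9 with water (log2 ratio -1.15 ± 0.34, from 1 spot), at chr3:17069572-17069631 in rn4. Its name was picked after its value was seen.

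A probe for a predicted Klf6 transcript variant, found by its description, fell short of the background limit on both arrays (4.67 units with Na2S3 and 4.26 with water). Klf11 was read by a second probe that was well above background with water alone, at 14.0 units with Na2S3 and 22.6 with water.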
